A study of Mus musculus with 2 samples.

Results

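The 225 genes described here are the expressed antisense long noncoding RNA genes of mouse macrophage nucleoplasm. They were chosen by their annotation and their counts: at least 1 transcript typed antisense, none typed protein-coding or lincRNA, and 50 or more expected counts in both libraries. Of 55536 genes in the gene tables, 3067 had such transcripts. Of these, 1524 had 0 counts in both libraries, 2747 had under 50 in both, 81 reached 50 only in replicate 1 and 12 only in replicate 2, and Zfas1 and Snhg14, small RNA hosts, were left out by name. Because the counts chose the genes, their levels are given as a description, with no test.

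The samples were bone marrow-derived macrophages of the inbred mouse strain C57BL/6J, in 1 group of 2 libraries, biological replicates 1 and 2. The cells were given 100 ng/ml Lipid A, a Toll-like receptor 4 ligand from the bacterial outer membrane, for 12 h. Lipid A was washed out for 12 h and 100 ng/ml was added again for 30 min before nucleoplasmic RNA was isolated, cleared of ribosomal RNA and sequenced. No untreated cells and no other fraction are among the samples used here, so no value says whether a gene responds to Lipid A or is enriched in the nucleus. Library building began with 1 µg of RNA for replicate 1 and 500 ng for replicate 2. Age and sex were not recorded, and both libraries carry the same donor identifier. The spread between them may therefore be technical in part.

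An antisense RNA is transcribed from the DNA strand opposite to another gene, called its partner here, and overlaps it. Some antisense RNAs act in cis on the partner, as Airn and Kcnq1ot1 do in imprinting, where they silence neighbouring genes on the paternal chromosome. Others share a start region with the partner, host small RNAs, or have no known function. Many stay in the nucleus, where partner introns are also present as unspliced RNA.

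Small RNAs of known sequence lie inside several of the genes. Of the 225, 9 held an annotated miRNA or snoRNA on their own strand, and 4 of these held a miRNA with a mature sequence in RefSeq (GRCm38.p6). These sequences are shown because they are the part of the host RNA with a known product; capitals mark the seed, bases 2 to 8.
miR-223-5p in F630028O10Rik: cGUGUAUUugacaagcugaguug
miR-223-3p in F630028O10Rik: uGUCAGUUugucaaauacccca
miR-7649-5p in Gm15987: uGACAGCAgugcuguagacaug
miR-7649-3p in Gm15987: uCUCUCCAgcacugcuuguuucu
miR-7211-5p in Tmcc3os: uCUUUCCCucugccacuccacc
miR-1900 in Gm47079: gGCCGCCCucucugguccuuca
None of the 6 mature sequences shares a seed with another. miR-223 is a myeloid miRNA, and its host F630028O10Rik (chrX:96239926-96243636, plus strand, mm10) had 4443 expected counts in replicate 1 and 3715 in replicate 2. Its level was 41.3 and 49.0 TPM (a level scaled by transcript length and library total), the sixth highest of the 225 genes. miR-223-3p lies at chrX:96242884-96242905, in a stretch that is an exon of the host. The row of Mir223 itself had 0 counts in both libraries, so the precursor's reads, if any, were listed under the host. The other hosts were lower: Gm15987 had 2.75 and 5.98 TPM, Tmcc3os 2.98 and 2.22 TPM, and Gm47079 2.05 and 2.31 TPM. The Mir7211 precursor lies in no exon of Tmcc3os, whereas Mir7649 and Mir1900 lie in exons of their hosts.

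Start regions are shown for the miR-223 host, for both imprinted RNAs and for the gene opposite Ebi3. Each runs from 250 bases before to 50 bases after the RefSeq start, on the gene's strand, and in lower case except for letters of a searched motif on either strand.
F630028O10Rik, host of miR-223, chrX:96239676-96239975, plus strand, capitals mark the paired interferon-response letters GAAANNGAA: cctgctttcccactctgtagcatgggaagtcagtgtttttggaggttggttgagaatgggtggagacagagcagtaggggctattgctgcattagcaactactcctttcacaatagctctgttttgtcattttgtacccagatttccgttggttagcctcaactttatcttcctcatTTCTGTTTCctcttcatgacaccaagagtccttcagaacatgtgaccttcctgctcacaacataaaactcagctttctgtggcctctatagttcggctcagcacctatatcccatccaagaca
Kcnq1ot1, imprinted, chr7:143296498-143296797, minus strand, capitals mark CCAAT: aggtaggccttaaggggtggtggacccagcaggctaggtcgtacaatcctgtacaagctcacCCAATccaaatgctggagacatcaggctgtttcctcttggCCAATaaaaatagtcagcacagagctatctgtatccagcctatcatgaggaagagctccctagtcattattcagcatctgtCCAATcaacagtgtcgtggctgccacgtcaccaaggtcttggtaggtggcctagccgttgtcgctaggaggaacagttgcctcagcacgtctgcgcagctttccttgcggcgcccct
Airn, imprinted, chr17:12741061-12741360, plus strand, capitals mark TATAAA: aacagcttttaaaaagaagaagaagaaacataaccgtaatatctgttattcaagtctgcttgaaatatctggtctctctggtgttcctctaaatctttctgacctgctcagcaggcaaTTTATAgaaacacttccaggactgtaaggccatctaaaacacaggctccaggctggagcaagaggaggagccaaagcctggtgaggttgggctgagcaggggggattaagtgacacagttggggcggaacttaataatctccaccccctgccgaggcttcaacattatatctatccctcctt
Gm16712, opposite Ebi3, chr17:55959352-55959651, minus strand, capitals mark CCAAT: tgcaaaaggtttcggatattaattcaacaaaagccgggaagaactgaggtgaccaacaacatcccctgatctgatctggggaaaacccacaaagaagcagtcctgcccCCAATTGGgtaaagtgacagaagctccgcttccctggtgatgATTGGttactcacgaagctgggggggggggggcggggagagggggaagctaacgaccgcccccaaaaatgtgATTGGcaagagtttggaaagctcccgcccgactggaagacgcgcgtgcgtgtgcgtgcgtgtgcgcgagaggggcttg
Kcnq1ot1 shows repeated CCAAT in 1 orientation, and Gm16712 shows it in both. RefSeq start regions were found for 89 of the 225 genes, 51 of them with a start within 100 bases of the GENCODE start. CCAAT was found in 39.3% of the 89 and in 38.2% of all 20591 start regions, and TATAAA in 13.5% and 13.2%. GAAANNGAA was found in 10.1% against 8.34% of all. The AP-1 letters TGANTCA, 4.49% against 7.40% of all, and the ETS letters CCGGAAG, 7.87% against 11.0%, differed a little more. In expressed lincRNA and protein-coding genes the AP-1 letters were in 5.88% and 4.7%, near the antisense share. The ETS letters were in 14.1% and 21.2% of them. The PU.1 letters GAGGAAGT were in 2.25% against 3.17%. The kappaB letters GGANTTTCC were found in 3 genes, Gm9917, Gm46218 and Gm32036 (named after their values were seen), 3.37% against 1.26%, and 1 of the 3 had it within the 250 bases before the start. Expressed lincRNA genes had these letters in 2.35% and protein-coding genes in 1.3%. The antisense genes' start regions held less G and C, a median of 52.0% against 55.0% for all regions and 61.0% for expressed protein-coding genes. Expressed lincRNA genes were close, at 53%. Of the 89, 40.4% had 10 or more CpG, against 52.4% of all regions, 51.8% of lincRNA and 84.8% of the 7616 protein-coding start regions. A match of letters is no evidence of binding, and none was measured here.

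The libraries held 23846021 and 20675305 gene counts, in which 50 counts equal 2.10 and 2.42 CPM. Of the macrophage markers, 25 of 26 reached 1 TPM in each library, with medians of 105 and 123 TPM. Markers of T and NK cells, B cells, neutrophils and fibroblasts reached 1 TPM in both libraries in 0 of 6, 4, 5 and 4 genes. Each of these lists summed to between 0.04 and 2.26 TPM in a library, and Cd3e, Cd8a, Ly6g and Elane were at 0 in both. Of 4 endothelial markers 2 reached 1 TPM, summing to 25 and 19.7 TPM. In bulk RNA such as this, fewer cells with an RNA and less of it per cell cannot be told apart.

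The genes were short and simply built. In the GENCODE M21 annotation they had a median of 2 exons, 33 had 1 exon (14.7%) and 87 had 2, and 126 had a single transcript. Their longest transcript had a median of 2432 bases and their span a median of 5522 bases. Expressed lincRNA genes, chosen at the same count, also had a median of 2 exons and 14.7% with 1, whereas protein-coding genes had a median of 10 exons and 1.48% with 1. Names were mostly provisional: 128 had a Gm number, 64 a Riken number, and 19 a gene symbol followed by os (such as Zeb2os or Dnmt3aos). Clone names were held by 6 and other names by 8, among them Airn, Kcnq1ot1, Tug1, Flicr and Gt(ROSA)26Sor. The gene in an os name was not always the partner used here: Brip1os had Med13 and Phtf1os had Rsbn1.

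How reads were shared between the strands decides what many of these values mean, so it was looked for in the deposited tables. The gene tables give a posterior SD for each expected count, which is above 0 where reads could be given to more than 1 gene. Among antisense genes whose exons lie over exons of the opposite strand only, it was above 0 in 109 of 146 (74.7%) in replicate 1 and 105 (71.9%) in replicate 2. Among the 64 whose exons lie over no other exon it was above 0 in 1 gene (1.56%) and 2 genes (3.12%). Over all genes with 50 or more counts, the same shares were 63.2% and 58.6% against 10% and 9.76%. Overlap on the same strand gave 72.9% and 69.0%. Most genes with exons opposite each other thus shared reads, as did most with exons on the same strand. In the 146 antisense genes the median SD was 0.642% of the count in replicate 1 and 0.612% in replicate 2. The sources used here do not give the strand setting itself. Reads of a partner, its introns included, and of the antisense RNA cannot be told apart from these tables, and this holds for every level below.

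The genes were split by that overlap, with 64 over no other exon, 132 over opposite-strand exons for up to 50% of their exon bases, 14 for over 50%, and 15 also over exons of a gene on their own strand. The medians of the mean level were 2.79, 2.54, 7.09 and 4.25 TPM in that order. The 14 genes mostly over opposite-strand exons, which in 13 were exons of the partner at least in part, had the lowest median length, with a median longest transcript of 1063 bases against 2122 in genes over no other exon. All 14 had a posterior SD above 0 in both libraries, with medians of 6.95% and 6.41% of the count.

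**Figure D1:**
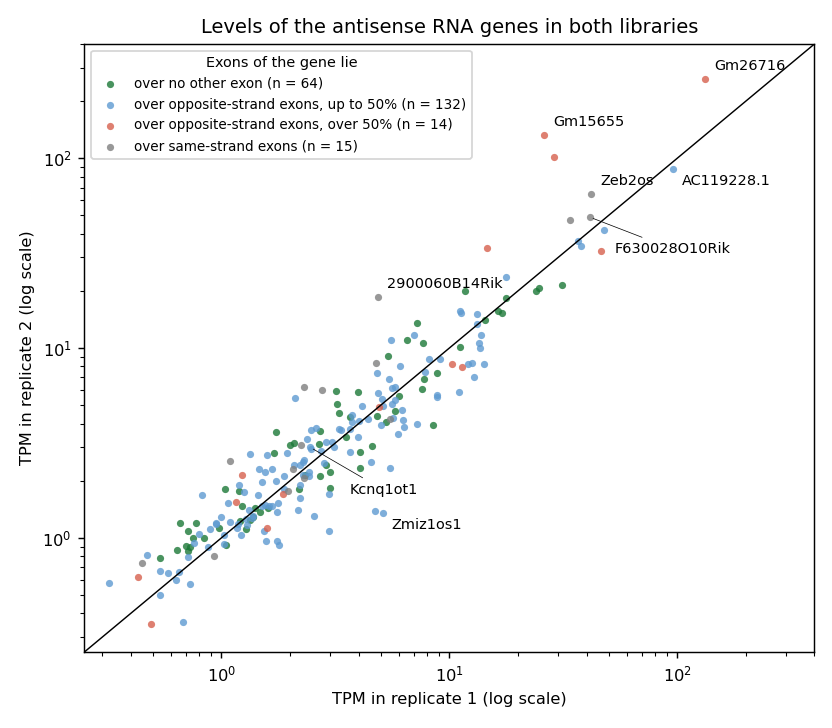
Level of each of the 225 antisense RNA genes, in TPM on log scales, in replicate 1 (horizontal) and replicate 2 (vertical), coloured by what the gene's exons lie over; the line marks equal TPM. Gm26716, Gm15655 and Gm37401, at the top, belong to the 14 genes mostly over opposite-strand exons and lie above the line.

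As a class the antisense RNAs were low. Their median level was 2.68 TPM in replicate 1 (quartiles 1.36 and 5.79) and 2.81 TPM in replicate 2 (1.36 and 5.93). LincRNA genes had medians of 3.29 and 3.53 TPM and protein-coding genes 6.62 and 8.0 TPM at the same count minimum. A level of 1 TPM was reached in each library by 188 of the 225, and 10 TPM by 28. Together they held 0.417% of gene counts in replicate 1 (95% Wilson interval 0.415 to 0.420, counting error only) and 0.380% in replicate 2 (0.378 to 0.383). The counts were concentrated: AC119228.1 alone held 14.3% and 12.2% of the class total, and the 10 largest held 43.7% and 46.3%.

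Among the 12 highest by mean TPM, 4 lay mostly over exons of the partner. Gm26716 (chr4:130824394-130826313, minus strand) had 133 TPM in replicate 1 and 262 TPM in replicate 2, a mean of 197 ± 91.1 (SD, n = 2). All 415 of its exon bases lie over the 3' UTR of Sdc3, a cell-surface proteoglycan at 154 and 176 TPM. The second, read-based quantification gave it 144 and 1024 counts against 962 and 1434 expected counts, so its value depends on how reads were assigned. Gm15655 (chr8:115705078-115707233, plus strand) had 26.0 and 133 TPM, a mean of 79.5 ± 75.7 (SD, n = 2). All 440 of its exon bases lie over exons of Maf, a macrophage transcription factor at 59.9 and 108 TPM, 401 of them over its 3' UTR. Gm37401 (chr9:108337089-108338273, minus strand) had 28.7 and 101 TPM, and 324 of its 347 exon bases lie over the 3' UTR of Rhoa, a small GTPase at 38.2 and 76.9 TPM. Gm37787 had 46.3 and 32.6 TPM opposite Slamf7, a leukocyte surface receptor at 206 and 223 TPM, with 367 of 585 exon bases over its 3' UTR. The first 3 were higher in replicate 2 and the last was lower.

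The others of the 12, beside F630028O10Rik described above, have most of their exon bases outside opposite-strand exons. AC119228.1 (chr19:29373417-29384471, minus strand), opposite the checkpoint ligand gene Cd274 (PD-L1), had 95.4 and 88.0 TPM from 14173 and 9555 expected counts, the largest count of the class. Of its 4725 exon bases, 511 lie over Cd274 coding sequence. Cd274 itself was at 235 and 340 TPM, so that the antisense gene stood below it in both libraries. Zeb2os (chr2:45110707-45114087, plus strand), opposite the start of Zeb2, a transcription factor of macrophage identity, had 41.8 and 64.9 TPM. Of its 1990 exon bases, 560 lie over the 5' UTR of Zeb2, which was at 348 and 363 TPM. Gm28913 lies opposite Ikbke, a kinase of the interferon pathway, and had 47.7 and 42.0 TPM with Ikbke at 308 and 217 TPM. Tug1, a long noncoding RNA that begins near the start of Morc2a, had 33.8 and 47.2 TPM against 10.1 and 11.5 TPM for Morc2a. BE692007 had 36.8 and 36.7 TPM opposite Ms4a6c, a myeloid membrane protein gene at 121 and 136 TPM. Gm40578 had 38.0 and 34.3 TPM opposite Tnfaip2, an inflammatory gene at 262 and 264 TPM. Gm2245, among the 8 highest by count though not by TPM, had 1615 and 1179 counts and 13.2 and 13.4 TPM opposite the immune adapter gene Fyb, at 370 and 386 TPM. Gm16094, one of 5 genes with no overlapping opposite-strand gene in the annotation, had 31.3 and 21.4 TPM. These levels depend on the quantification used. Gm28913 had 255 and 172 expected counts against 1583 and 1640 read-based counts. In read-based TPM, Zeb2os had 197 and 317, Gm28913 97.5 and 149, and Gm16094 51.2 and 63.2. Read-based TPM was instead the lower value in both libraries for AC119228.1, Tug1, BE692007, Gm40578 and Gm2245.

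Genes with no exon overlap carry almost no posterior SD. The highest of the 64 such genes, named after their values were seen, was Gm16094. Its 240 and 124 expected counts stood against 1135 and 923 read-based counts. A posterior SD near 0 thus did not mean that the quantifications matched. In the 64 genes the median log2 of read-based over expected counts was 0.92 and 1.07, beside 0.42 and 0.64 over all genes. Gm7480, inside Lrmda, had 24.7 and 20.8 TPM, beside 25 and 20.9 TPM for Lrmda. 4930430E12Rik, with no opposite gene, had 24.0 and 20.1 TPM, from 448 and 291 expected counts against 1482 and 1358 read-based counts. 4933423P22Rik, inside Ptprj, a receptor tyrosine phosphatase gene at 65.6 and 97.7 TPM, had 17.7 and 18.4 TPM from 2010 and 1438 counts. Gm26740, opposite the lincRNA gene Gm26581, had 16.36 and 15.65 TPM. Gm29083, inside the neuropilin gene Nrp2, had 11.7 and 20.0 TPM. Gm46411, inside Rreb1, a zinc finger gene, had 14.4 and 14 TPM. Gm20234, opposite Slfn2, had 17.0 and 15.4 TPM from 321 and 213 expected counts, against 4482 and 3699 read-based counts. The levels of the 4 genes inside Lrmda, Ptprj, Nrp2 and Rreb1 can include reads from introns of those genes.

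**Figure D2:**
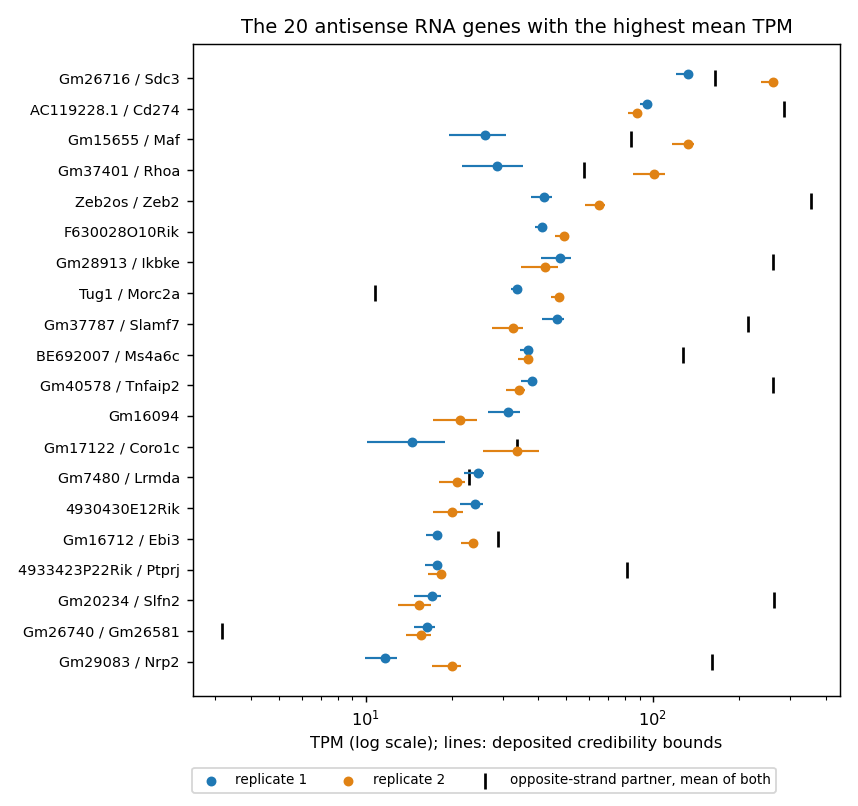
The 20 antisense RNA genes with the highest mean TPM (gene / opposite-strand partner), on a log axis in TPM; points give each library, lines the deposited credibility bounds, and black bars the partner's mean over both libraries. AC119228.1, Zeb2os and Gm28913 stand below their partners in both libraries, and Tug1 stands above Morc2a.

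Of the 225 genes, 220 had a partner, 215 of them protein-coding, with 211 distinct partners. In 135 the antisense gene began inside the partner, in 29 the starts lay within 1 kb of each other, and in 56 it began beyond the partner's 3' end. In 114 the whole antisense gene lay inside the partner. Exons met exons in 153 pairs: the part of the partner most covered was coding sequence in 71, 5' UTR in 41, 3' UTR in 36 and a noncoding exon in 5. Among pairs with starts within 1 kb it was the 5' UTR in 18 of 27, and among those beginning beyond the 3' end the 3' UTR in 27 of 49.

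The antisense gene was the lower of the pair in most cases. On a per-length scale (FPKM, which scales fragments by transcript length and library size, with 0.1 added before the ratio), the median log2 of antisense gene over partner was -2.39 in replicate 1 and -2.60 in replicate 2. In 184 pairs it was below 0 in both libraries, in 26 above 0 in both, and in 10 the libraries differed. The partner was taken as the opposite gene with the most counts, a choice that favours a lower antisense gene; with the longest-overlapping gene instead, 40 stood above it in both. The median mean level was 2.65 TPM for the antisense genes and 18 TPM for the partners. By layout the mean log2 had medians of -2.44 with starts within 1 kb, -2.65 with the start inside the partner, and -2.25 beyond the 3' end. In the 67 pairs with no exon-exon overlap, it was -2.44, close to -2.54 in the 153 with overlap. Across the 220 pairs the log2 levels had a Pearson r of 0.40, a description over genes that share both libraries. In the 54 pairs in which the antisense gene lay wholly inside the partner without exon overlap, r was 0.49. It was 0.06 in the 29 pairs with starts within 1 kb and 0.32 in the 56 beginning beyond the 3' end. In the pairs wholly inside, intron reads of the partner can enter the antisense gene's value. Their part in r was not tested.

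**Figure D3:**
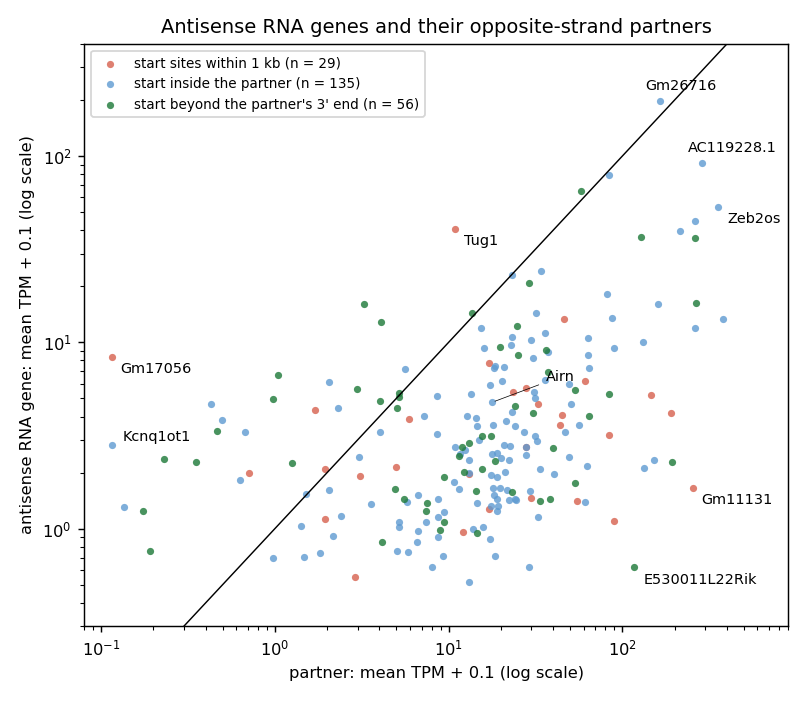
Mean TPM over both libraries plus 0.1 for each antisense RNA gene (vertical) and its opposite-strand partner (horizontal), log scales, 220 pairs coloured by layout; the line marks equality. Most points lie below the line, and Kcnq1ot1, Gm17056 and Tug1 are among those above it.

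Some antisense genes stood where the partner was near 0. Kcnq1ot1 (chr7:143203458-143296549, minus strand), a single-exon RNA of 93092 bases that begins inside the potassium channel gene Kcnq1, had 8821 and 7742 expected counts. Per length this was 2.45 and 3.0 TPM, while Kcnq1 was listed at 0.00 and 0.03 TPM. Only 121 of its bases lie over partner exons. Gm17056 had 5.55 and 11.0 TPM with Lsmem1 at 0.03 and 0.00 TPM. Gm26947 had 3.66 and 3.76 TPM opposite the noncoding gene Pldi at 0.79 and 0.00 TPM. Gm4673 had 2.43 and 2.11 TPM opposite Lsr, a lipoprotein receptor gene at 0.24 and 0.02 TPM. Plxna4os1 had 1.28 and 1.11 TPM opposite the plexin gene Plxna4 at 0.02 and 0.05 TPM. Each of these 5 partners was under 1 TPM in both libraries. These 5 genes were picked for the highest level over the partner, so a partner near 0 is no finding.

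At the other end, E530011L22Rik stood lowest below its partner, at 0.68 and 0.36 TPM opposite Nktr at 122 and 113 TPM. Gm11131 had 1.66 and 1.47 TPM where H2-Q4, a class I MHC gene, had 246 and 261 TPM. 4930404I05Rik had 0.89 and 1.11 TPM opposite the phosphatase gene Synj1 at 93.2 and 86.1 TPM. Gm26885 had 2.96 and 1.08 TPM opposite Pim1, a kinase gene at 123 and 142 TPM. Gm47079, the host of miR-1900, had 2.05 and 2.31 TPM opposite the adhesion molecule gene Icam1 at 188 and 201 TPM. For 4930404I05Rik, Gm26885 and Gm47079, another opposite gene overlaps over a longer stretch: Paxbp1, AC163629.2 and Icam4 in that order.

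Lists of macrophage response and identity genes held 170 genes in all, of which 5 (2.94%) were the partner of one of the 225. Of the 155 with 50 or more counts in both libraries 5 were (3.23%), beside 1.98% of the 9488 expressed protein-coding genes. Only the partner, the opposite gene with the most counts, is counted here. Of 28 immediate early genes and 36 interferon-stimulated genes, 0 were the partner of one of the 225. An antisense-type gene of any count lay opposite 4 and 3 of them. Of 28 early NF-kB genes, 1 was a partner (Icam1, with Gm47079). Of 23 late inflammatory genes, Ebi3 was. This gene encodes a subunit of interleukin 27 and was at 26.9 and 31.0 TPM, and its Gm16712 had 17.8 and 23.7 TPM. Of 29 genes of Toll-like receptor signalling, Ikbke had Gm28913 and Gm28914, the latter at 13.6 and 9.96 TPM. Of 26 macrophage identity genes, Zeb2 and Maf had one each. Cx3cr1 of the same list also lies opposite 1700019L13Rik but is not counted, since Csrnp1 had more counts there.

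Well-known RNAs of antisense loci were mostly not expressed at this count. Of 33 listed, 31 were in the annotation and 3 were among the 225: Kcnq1ot1, Zeb2os and Airn. Airn (chr17:12741311-12860136, plus strand), which silences Igf2r on the paternal chromosome, had 169 and 106 expected counts and 5.27 and 4.06 TPM, with Igf2r at 15.1 and 20.2 TPM. Its exons lie over no other exon, and its read-based counts were 854 and 608. Tsix, the antisense RNA of Xist, had 9.46 and 0.00 counts. Ptgs2os, beside the prostaglandin synthase gene Ptgs2, had 10 and 11, Gm16685 had 17 and 15, and Hotairm1, a myeloid RNA of the Hoxa cluster, had 3 and 3. Others on the list were well expressed but typed otherwise, such as Mir155hg, a lincRNA by type, at 68.1 and 110 TPM.

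Just inside the minimum of 50 counts were Gm28988 with 50 and 56, Gm14540 with 50.17 and 52.21, and E530011L22Rik with 134 and 50.26. Just outside it were Gm38336 with 50.77 and 49.99, Gm42893 with 49.65 and 61.41, and Gm17690 with 84.04 and 49.60. Genes on both sides of the limit had like counts.

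The replicates differed more in this class than in coding genes. After scaling for library composition, the median log2 ratio of replicate 2 over replicate 1 was -0.25 (quartiles -0.50 and 0.14), with 73 genes higher and 152 lower in replicate 2. Of all 10875 genes with 50 or more counts, 5668 were higher and 5207 lower, and of 211 lincRNA genes 97 and 114. LincRNA genes had a median of -0.05 and protein-coding genes 0.04. Beyond 2-fold, 5 antisense genes (2.22%) were higher in replicate 2, where 1.60% of all 10875 genes were, and 18 (8.0%) were lower, where 1.57% of all genes were. Of 211 lincRNA genes, 3 (1.42%) and 14 (6.64%) were, and of protein-coding genes 1.42% and 1.00%. The split by count was uneven. At a mean count of 50 to 200, 8.09% of 136 antisense genes, 3.70% of 108 lincRNA genes and 1.36% of 2277 protein-coding genes were beyond 2-fold lower. At 200 to 1000 counts the shares were 8.97% of 78, 8.96% of 67 and 0.848% of 4010. At 1000 counts or more they were 0 of 11 antisense genes, 11.1% of 36 lincRNA genes and 0.937% of 3201 protein-coding genes. With 100 or more counts required in both libraries, 3 of 131 antisense genes (2.29%) were beyond 2-fold higher, beside 1.21% of all genes, and 6 (4.58%) lower, beside 1.19%. Each ratio sets 1 library against 1 other, so no test is given. The RNA input, 1 µg against 500 ng, differed with the library, and its part in the result was not tested. By TPM the median log2 ratio was 0.02 for the antisense genes and 0.26 for all genes with 50 or more counts, so relative to all genes they were lower in replicate 2 on that scale too.

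**Figure D4:**
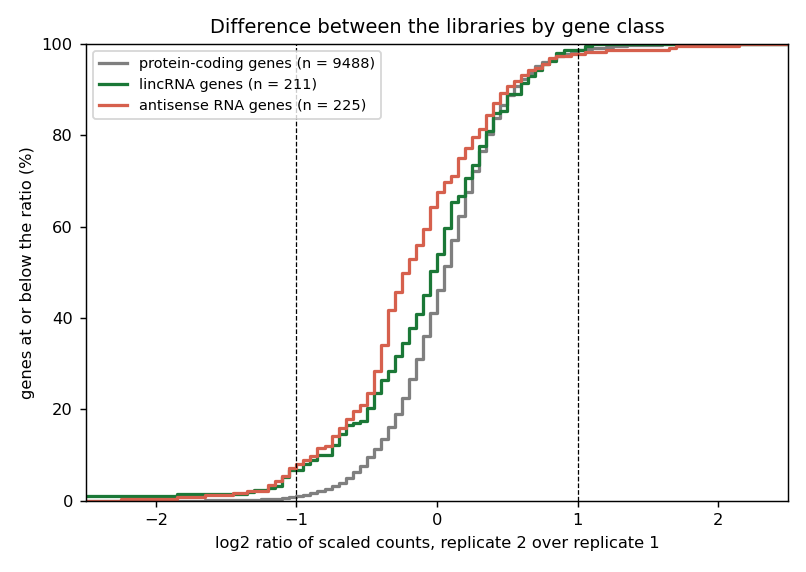
Percent of genes (vertical) at or below each log2 ratio of scaled counts, replicate 2 over replicate 1 (horizontal), for 225 antisense RNA, 211 lincRNA and 9488 protein-coding genes; dashed lines mark 2-fold. The antisense curve lies to the left, with 8.0% of genes beyond 2-fold lower in replicate 2 against 1.00% of protein-coding genes.

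By overlap class, the ratio was alike in the larger classes, and the values that differed came from the small ones. The median log2 ratio was -0.27 in the 64 genes over no other exon and -0.26 in the 132 up to 50% over opposite exons. It was -0.13 in the 14 genes over 50%, and 0.39 in the 15 over same-strand exons. Of the 18 genes beyond 2-fold lower, 16 were in the class up to 50% over opposite exons and 2 over no other exon. Of the 5 beyond 2-fold higher, 3 lay mostly over partner 3' UTRs and 2 over same-strand exons.

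The 5 that were higher are Gm15655, 2900060B14Rik, Gm37401, B930036N10Rik and Gm17122. Gm15655 had 212 and 819 expected counts, a log2 ratio of 2.14 (95% exact interval 1.93 to 2.37, counting error only), and its partner Maf had a log2 ratio of 0.59. Gm37401 had 136 and 368 counts, a log2 ratio of 1.63, with Rhoa at 0.54. Gm17122, with all 372 exon bases over the 3' UTR of Coro1c, an actin-binding coronin, had 82.1 and 145 counts, a log2 ratio of 1.02, with Coro1c at 0.23. 2900060B14Rik, inside Clasp1, had 73 and 206 counts, a log2 ratio of 1.69, with Clasp1 at -0.08. B930036N10Rik had 296 and 573 counts, a log2 ratio of 1.15, with its partner Alyref2 at -0.30.

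The 5 with the lowest ratios began inside their partners. Zmiz1os1 had 640 and 115 counts, a log2 ratio of -2.27 (interval -2.58 to -1.99), while Zmiz1, a transcriptional coregulator, had 0.09. 1700019L13Rik, which begins inside Csrnp1, had 265 and 62 counts, a log2 ratio of -1.89, with Csrnp1 at -0.28. Gm26885 had 347 and 95.7 counts, a log2 ratio of -1.66, with Pim1 at -0.22. 4930551O13Rik, inside the autophagy receptor gene Optn, had 178 and 55 counts, a log2 ratio of -1.49, with Optn at -0.58. Gm45479, inside the interferon regulatory factor gene Irf2 and over no other exon, had 188 and 64 counts, a log2 ratio of -1.35, with Irf2 at -0.32. These 5 were picked for their ratio, so a partner nearer to 0 is no finding. The read-based ratios had the same sign in each, from -2.06 for Zmiz1os1 to -0.81 for Gm26885. Over all 220 pairs the replicate ratios of antisense gene and partner had a Pearson r of 0.23 and a Spearman rho of 0.33, again as a description.

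The deposited credibility bounds of TPM, which cover estimation within a library, did not overlap between the libraries in 81 of the 225 genes, 44 higher and 37 lower in replicate 2. They overlapped in 144. These values carry the shift of TPM over all genes given above. The same share over all genes was not computed, so these counts do not set the class apart. The bounds did not always hold the TPM itself. In replicate 1, Gm26885 had 2.96 TPM with bounds of 3.13 to 4.37.

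Read-based counts were higher than the expected counts for most of the genes. The median log2 of read-based over expected counts was 0.69 in replicate 1 and 0.94 in replicate 2, beside 0.42 and 0.64 over all genes. Expressed lincRNA genes were close, at 0.74 and 0.95. In both libraries 223 genes had 50 or more read-based counts. The order of the genes was kept less well than for coding genes, with a Spearman rho of 0.835 and 0.823 against 0.981 in each library. LincRNA genes had 0.818 and 0.807, so this was not particular to antisense genes. By overlap class, the median log2 was 0.92 and 1.07 in genes over no other exon and 0.07 and 0.31 in those mostly over opposite exons. Gm17139, wholly over the 3' UTR of Arel1, was the gene with under 10 read-based counts in either library: 150 and 77.4 expected counts stood against 29.3 and 0.00 read-based counts. Among genes with several transcripts and 1 TPM or more, the same transcript led in each of the transcript tables for 48 of 77 (62.3%) and 62 of 85 (72.9%), beside 67.2% and 74.9% of all such genes.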

How the data were processed

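Nucleoplasmic RNA was measured in 2 libraries of 1 group. Per the file headers, the deposited tables use mm10 and GENCODE M21; the sources used here do not give the aligner, quantifier or strand setting. Expected counts (estimated counts), TPM and FPKM come from the gene tables the authors deposited; the 26345 rows for tRNA, spike-ins and phage, 1.10% and 0.267% of counts, were left out. Read-based counts are a second deposited quantification of transcripts, summed per gene here. The counts differed between libraries by a chi-square of 113 per gene over 14327 genes, above counting noise.

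Expected counts were rounded and scaled by TMM (edgeR 4.0.16), with DESeq2 1.42.0 size factors as an alternative; ratios used a prior count of 0.5. Steps ran in Python 3.11.15 and R 4.3.3. The ratio was tested on simulated counts with counting noise only, and the overlap search on a small made-up annotation. The other steps were not tested in this way. The partner was the overlapping opposite-strand gene with the most counts. With 1 group no test was possible, and p-values are not given. Intervals cover counting error only. The genes and lists were chosen with earlier results of these data known. Named genes were the 12 highest by TPM, the 8 highest by count, the 5 largest ratios each way, and those with a listed partner. Others were known RNAs, the 5 highest and 5 lowest over the partner, those with under 10 read-based counts, and those at the 50-count limit. Some genes were named outside these rules. Further genes over no other exon, and those with kappaB letters, were named after values were seen.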

Additional observations from a re-analysis of the deposited data

How the results depend on the processing

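Of 57 alternative values, 1 changed sign and 19 moved past their limit, which was a ratio of 1.5 for counts of genes and, for other values, the spread between replicates, a counting interval or, for the median log2 ratio, 0.05. The other 37 stayed within it, among them 12 genes beyond 2-fold lower with read-based counts, against 18, and the PU.1 letters in 1.12% of start regions without the 50 bases after the start, against 2.25%. The number of genes was 400 at a minimum of 20 counts, 131 at 100 and 739 with read-based counts; leaving out 1 replicate gave 237 to 306. The share of gene counts was 0.486% with read-based counts and 0.380% to 0.417% with 1 replicate left out. The median level of 2.75 TPM was 4.04 in FPKM, 2.37 in read-based TPM and 4.07 as CPM per kb of effective length; with 1 replicate left out it was 2.68 to 2.81. The median log2 ratio between replicates was -0.18 with read-based counts and 0.02 with TPM, which carries the shift of all genes. Beyond 1.5-fold, 16 genes were higher and 45 lower; with 100 or more counts in both libraries, 3 and 6 were beyond 2-fold, of 131 genes. The median log2 level over the partner, -2.49, was -2.22 with a pseudocount of 1, -2.23 with read-based TPM, -3.27 with expected counts, -2.31 with the longest-overlapping partner, and -2.60 to -2.39 with 1 replicate left out. Genes above the partner in both libraries numbered 40 with the longest-overlapping partner. The leading transcript was the same in 59.5% at 5 TPM, against 67.6%. Read-based over expected counts gave 0.69 to 0.94 with 1 replicate left out. The kappaB letters were in 1.12% of start regions without the 50 bases after the start. The causes were not tested. Counting per kb of annotated exon and dropping genes mostly over opposite exons were chosen after seeing the data, as was requiring 50 read-based counts; each stayed within its limit. No paired analysis was possible because there is only 1 group of samples.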
